A study of Homo sapiens with 6 samples.

Results

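The genes described here encode 10 secreted factors through which tumour cells act on the stroma: PDGFA and PDGFB for fibroblasts, VEGFA for vessels, CSF1, CXCL1, CXCL5 and CXCL8 for myeloid cells, IL6 and LIF for fibroblasts and immune cells, and SHH for fibroblasts. They were taken as a list of named genes and make up 10 of 20033 protein-coding genes. MYC chromatin immunoprecipitation sequencing was done in MIAPaCa2, an established human pancreatic ductal adenocarcinoma line. All cells had spent 48 hours without serum. One group then received medium conditioned by primary cancer-associated fibroblasts, without serum (CM), and the other fresh serum-free DMEM, each for 3 hours and with 2 immunoprecipitated libraries. Separate cultures are not stated for the 2 libraries of a group, whose spread may therefore be technical. This is 1 line in culture, with no fibroblast, vessel or myeloid cell present to receive the signals.

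PDGF chains pair into dimers that drive the growth and migration of fibroblasts and pericytes, VEGFA drives vessel growth, and CSF1 keeps macrophages alive. CXCL1, CXCL5 and CXCL8 are chemokines that draw neutrophils through the receptor CXCR2. IL6 and LIF are cytokines that signal through the shared receptor chain gp130 to JAK kinases and STAT3, and SHH, released by pancreatic tumour cells, acts on neighbouring fibroblasts through PTCH1 and SMO. The MYC protein binds DNA as a dimer with MAX, by preference at the E-box CACGTG and at close variants of it, and most of its binding lies at gene starts rich in CG pairs.

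A gene counted as bound in a library when a peak of that library's list lay inside the gene or within 1000 bp of either of its ends. In both CM lists, peaks were found at VEGFA, CXCL5, PDGFA, CSF1, PDGFB and CXCL1. VEGFA was the one member bound in all 4 lists. PDGFA and CXCL5 were bound in both CM lists and in DMEM library 2, and CSF1, PDGFB and CXCL1 in the CM lists alone. LIF, CXCL8, IL6 and SHH had no peak in any list under this rule, although LIF lay between dense groups of peaks.

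Sequence upstream of the starts was taken from RefSeq (GRCh38.p14), which held promoters of 6 of the 10 members: PDGFA, CXCL1, CXCL5, CXCL8, IL6 and SHH. PDGFB, CSF1, LIF and VEGFA were not in the table. The 250 bases that end just before the annotated start are printed for 4 starts, since they set the 3 members with a peak there beside CXCL8, a chemokine gene without one. Capitals mark matches on either strand to CACGTG, to its variants CACGCG or CATGTG or CACGAG, and to GGAATTTCC, a sequence of the kind bound by NF-κB. The last was searched after the sequences had been read. The PDGFA window is one of 4 in the table and lies whole within a peak of each CM list.
PDGFA, chr7:520227-520476, minus strand: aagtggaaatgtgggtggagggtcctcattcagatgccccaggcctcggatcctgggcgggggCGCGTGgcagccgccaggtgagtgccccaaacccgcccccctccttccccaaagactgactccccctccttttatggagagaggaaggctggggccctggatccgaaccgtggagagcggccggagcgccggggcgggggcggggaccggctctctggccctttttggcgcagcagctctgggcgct
CXCL1, chr4:73869143-73869392, plus strand: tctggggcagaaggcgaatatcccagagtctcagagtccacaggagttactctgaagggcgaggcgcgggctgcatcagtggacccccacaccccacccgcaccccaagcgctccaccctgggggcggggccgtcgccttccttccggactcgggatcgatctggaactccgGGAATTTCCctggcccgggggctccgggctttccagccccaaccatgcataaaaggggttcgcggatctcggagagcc
CXCL5, chr4:73998678-73998927, minus strand: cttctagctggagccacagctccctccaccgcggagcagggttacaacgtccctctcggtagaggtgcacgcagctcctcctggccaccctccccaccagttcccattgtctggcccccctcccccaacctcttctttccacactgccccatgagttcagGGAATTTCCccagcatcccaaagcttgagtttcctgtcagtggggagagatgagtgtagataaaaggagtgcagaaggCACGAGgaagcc
CXCL8, chr4:73740319-73740568, plus strand: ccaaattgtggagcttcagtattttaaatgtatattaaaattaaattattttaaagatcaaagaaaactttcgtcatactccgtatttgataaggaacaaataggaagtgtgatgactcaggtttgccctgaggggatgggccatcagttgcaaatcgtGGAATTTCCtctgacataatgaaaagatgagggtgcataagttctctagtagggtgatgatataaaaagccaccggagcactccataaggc

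None of the upstream windows of the 6 members held the E-box CACGTG, which was present in 7.37% of 22198 promoters of protein-coding genes. The PDGFA window held CACGCG, read as CGCGTG on the printed strand, from 187 to 182 bases before the start; this variant was present in 12.18% of promoters and also stood upstream of a second PDGFA start, at 519846. CXCL5 held CACGAG from 12 to 7 bases before its start, a variant present in 6.12%. CATGTG, present in 7.60% of promoters, was not found in any member's window. GGAATTTCC was shared by the 3 chemokine genes, from 78 to 70 bases before the start of CXCL1, from 90 to 82 before CXCL5 and from 91 to 83 before CXCL8, and was present in 0.36% of promoters. It thus stood at 2 chemokine starts with CM peaks and at 1 without. Since it was chosen after these windows had been read, the share of 0.36% does not measure how unusual this is. Only the exact sequence was searched, so other sequences of the kind bound by NF-κB may stand in any window, that of IL6 included. A match is a description of the letters and not a binding site.

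The lists differed in length. CM libraries 1 and 2 had 15304 and 12797 peaks, and DMEM libraries 1 and 2 had 4657 and 7652. Read depth is unknown for all 4, so a missing peak is a peak not found at the authors' threshold. The number of peaks per list moved with the condition, and its part in the calls given below cannot be told apart from the medium with these files. Peak width moved with it too, with medians of 691 and 593 bp in CM libraries 1 and 2 and 430 and 431.5 bp in DMEM libraries 1 and 2. Widths and covered bases at single genes are therefore not read as a difference between the media.

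In CM libraries 1 and 2, 6 of the 10 members were bound in each, beside 48.1% and 45.2% of all protein-coding genes. In DMEM libraries 1 and 2, 1 and 3 members were bound, beside 19.0% and 31.6% of all genes. The mean difference was 4 members, with p = 0.333 in an exact two-sided permutation test over 6 relabellings, the smallest value that 2 against 2 libraries allow. Both CM lists together bound 6 members (43.3% of all genes), and both DMEM lists 1 (18.1%). The CM-only class held 3 members (11.7% of all genes), the class with both CM lists and 1 DMEM list 2 (13.6%), the class with all 4 lists 1 (18.0%) and the class with no list 4 (49.8%). With 10 genes, each member moves its share by 10 points, and the shares were not tested against these backgrounds. The 10 genes are short, from 1916 to 23443 bp, and short genes have less room for a peak. Of 10194 protein-coding genes of at most 25000 bp, 37.2% were bound in both CM lists and 9.6% were CM-only.

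**Figure D1:**
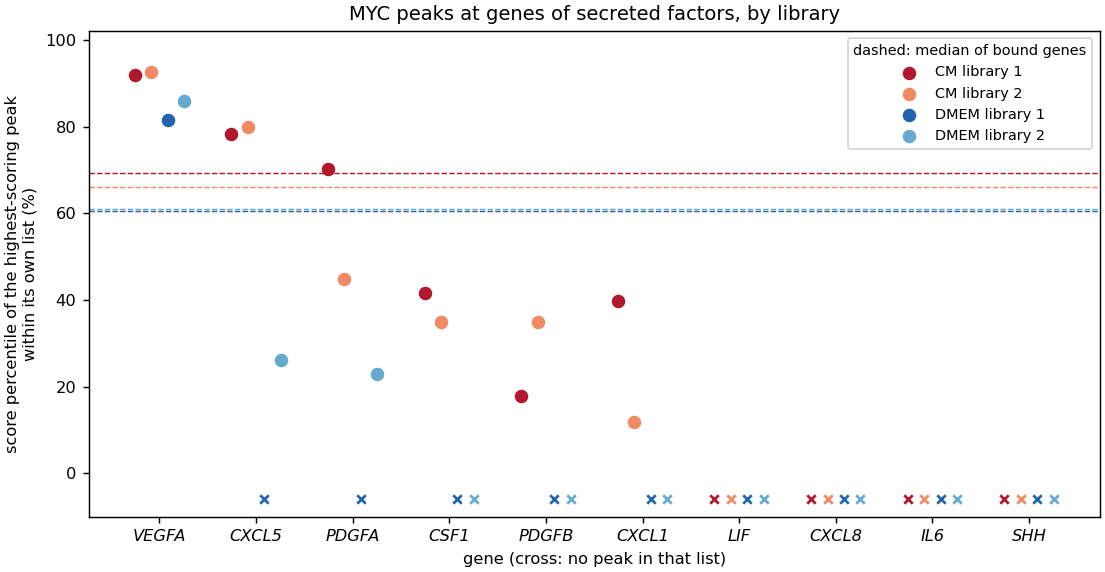
Score percentile, in percent, of the highest-scoring peak at each of the 10 genes within its own peak list (points, 1 per library; crosses mark lists with no peak at the gene; dashed lines show the median over all bound genes of that list). VEGFA sits above the dashed lines in all 4 lists, CXCL5 above them in both CM lists, and CSF1, PDGFB and CXCL1 below them with no DMEM point.

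The authors' score ranks peaks within 1 list, and is given here as a percentile of that list. Because the lists differ in length, percentiles of CM and DMEM lists stand side by side and do not measure a change. Over all bound genes, the median percentile of the best peak was 69.3 and 66.0 in CM libraries 1 and 2 and 60.5 and 61.1 in DMEM libraries 1 and 2.

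VEGFA, the main growth factor for blood vessels, had the highest-ranked peaks of the 10 genes in every list. The gene lies on chromosome 6 at 43770211 to 43786487. Its best peak stood at percentile 91.9 in CM library 1, 92.6 in CM library 2, 81.5 in DMEM library 1 and 86.0 in DMEM library 2, with scores of 336, 338, 111 and 179. All 4 values lay above the median of bound genes in their lists.

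At VEGFA the peaks gathered at the low-coordinate end, from which the gene is read, and reached into the gene. CM library 1 had 1 peak of 3675 bp from 43769400 to 43773074. CM library 2 divided the same stretch into 2 peaks, of 1430 and 1539 bp. DMEM library 1 had 3 short peaks of 297, 249 and 562 bp, all from 814 to 2324 bp inside the gene, and none across its end. DMEM library 2 had a peak of 646 bp across the end and one of 1542 bp inside. The highest-scoring peaks of CM library 2 and of both DMEM libraries lay inside the gene, starting 1188, 1763 and 632 bp from its end. In total, peaks covered 3675 and 2969 bp at VEGFA in the CM lists and 1108 and 2188 bp in the DMEM lists. The 3 protein-coding genes whose 4 percentiles were nearest to those of VEGFA, by Euclidean distance over the 4 lists, were DHX36 (1.81), EIF4G3 (2.27) and RPS10 (2.79).

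**Figure D2:**
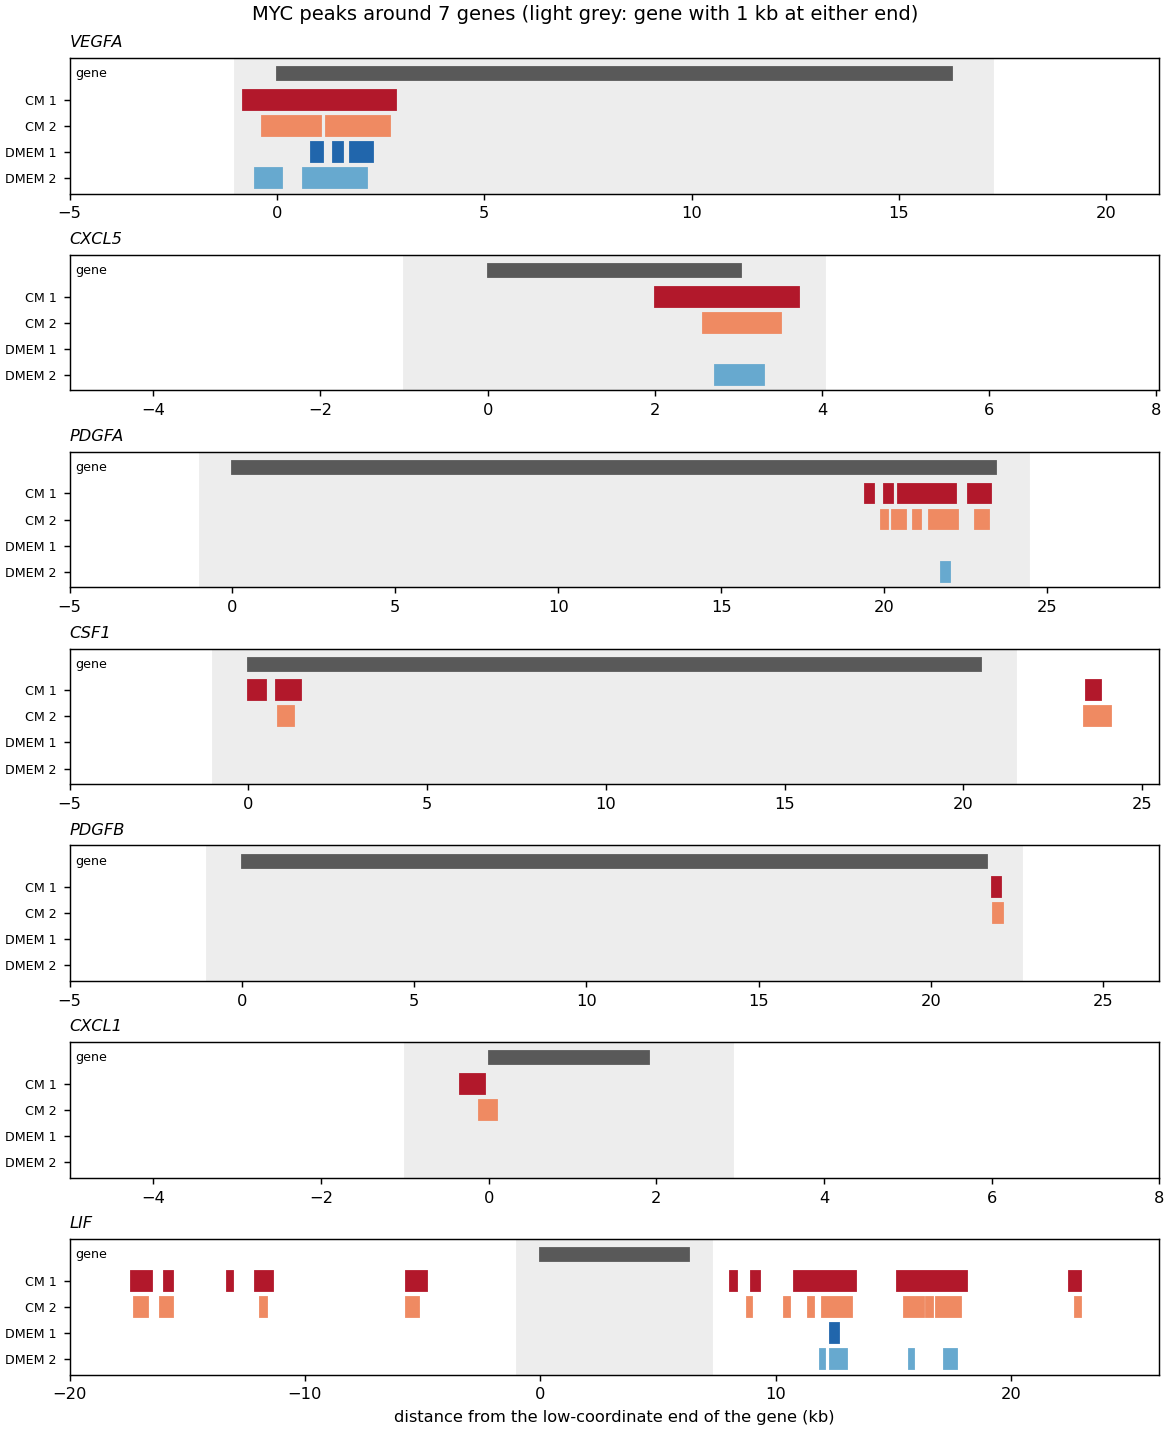
Positions of the peaks of each list (coloured bars, 1 row per library) around 7 of the genes (dark grey bars), in kb from the low-coordinate end of the gene; each panel has its own scale, and light grey marks the gene with 1 kb on either side. At VEGFA bars of all 4 lists lie near the low end, while at LIF the grey area is empty and bars lie on both sides of it.

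The platelet-derived growth factor genes PDGFA and PDGFB, whose products act on fibroblasts and pericytes, differed in how many peaks they carried. PDGFA, on chromosome 7 at 497258 to 520700, had 4 peaks in CM library 1, 5 in CM library 2, 0 in DMEM library 1 and 1 in DMEM library 2. All lay inside the gene, and began no more than 4038 bp before its high-coordinate end, where RefSeq places its 4 starts. These peaks covered 3037 and 2222 bp in the CM lists and 272 bp in DMEM library 2.

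The best PDGFA peak stood at percentile 70.2 in CM library 1, from 517681 to 519465, and at 44.8 in CM library 2, from 518628 to 519510. The single DMEM peak, from 518995 to 519266, stood at percentile 22.9 of DMEM library 2 and lay within both of these. It began 1705 bp before that end, so with peaks at the outermost gene ends only, PDGFA was bound in both CM lists and in no DMEM list. It lay within 1000 bp of the annotated starts at 518329, 519846 and 520226, and counted by annotated starts as well. A second stretch, from 519828 to 520533 over both CM lists, had no DMEM peak. It held the printed window, and stood at percentiles 67.3 and 23.9. The upstream windows of 3 of the 4 PDGFA starts were overlapped in both CM lists, and that of the outermost start, at 520700, in none. The noncoding genes PDGFA-DT and LOC105379749 overlap this region, so its peaks cannot be assigned to PDGFA alone.

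PDGFB, on chromosome 22 at 39223359 to 39244982, had 1 small peak in each CM list and none in DMEM. The CM peaks were 268 and 269 bp wide and began 136 and 184 bp outside the high-coordinate end, from which the gene is read. They stood at percentiles 17.9 and 35.0, low in both lists. In DMEM libraries 1 and 2 the nearest peak lay 73.7 and 55.3 kb from the gene. Among genes unbound in the same list, 29.8% and 33.3% had a nearer peak.

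CSF1, the growth factor of macrophages, lies on chromosome 1 at 109910506 to 109930992 and was bound in the CM lists alone. Both had a peak just inside the low-coordinate end, from 109911276 to 109911976 in CM library 1 (percentile 41.5) and from 109911344 to 109911787 in CM library 2 (percentile 35.0). CM library 1 had a further peak across that end, at percentile 10.4. A peak outside the rule was ranked higher than these in both CM lists: it began 2959 and 2898 bp beyond the other end and stood at percentiles 49.8 and 51.4. The nearest DMEM peaks lay 289.8 and 86.4 kb away, and 59.6% and 42.6% of genes unbound in the same list had a nearer one.

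The 3 neutrophil chemokine genes stand in 1 cluster on chromosome 4 and differed among themselves. CXCL5, at 73995642 to 73998677, had a peak across its start in both CM lists, at percentiles 78.3 and 79.9. This was the second highest rank among the 10 genes in each CM list. DMEM library 2 had a narrower peak there, at percentile 26.2, and DMEM library 1 had none within 736.9 kb. Of genes unbound in DMEM library 1, 79.6% had a nearer peak. The CXCL5 peaks were 1722 and 934 bp wide in CM and 583 bp in DMEM library 2, beside list medians of 691, 593 and 431.5 bp. The noncoding gene LOC124900715 has an end within the CXCL5 gene and shares these peaks.

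CXCL1, at 73869393 to 73871308, had a single short peak in each CM list. The one in CM library 1 ended 50 bp before the start (296 bp wide, percentile 39.8), and the one in CM library 2 crossed it (217 bp wide, percentile 11.8). They overlapped in part and covered 446 bp together. The nearest DMEM peaks lay 610.6 and 127.1 kb away, and 75.6% and 51.7% of genes unbound in the same list had a nearer one.

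CXCL8, at 73740569 to 73743716, had no peak in the gene or within 1000 bp in any list. Its nearest peaks lay 17.3 kb away in CM library 1, 36.0 kb in CM library 2, 481.8 kb in DMEM library 1 and 254.6 kb in DMEM library 2. Among genes unbound in the same list, 17.9%, 29.9%, 70.8% and 67.4% had a nearer peak. In lists of equal length, the distances were 253928 and 254497 bp in CM and 481824 and 414735 bp in DMEM. Other chemokine genes of the family, CXCL3, CXCL6, PPBP and PF4, had no peak in any list either, and CXCL2 had 1 in CM library 1, at percentile 2.8.

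The 2 cytokines of the gp130 family, IL6 and LIF, both lacked a peak under the rule, but their surroundings differed. IL6, on chromosome 7 at 22727200 to 22731998, had its nearest peak 88.9 to 90.4 kb away in the 4 lists. This was close to the median gap of unbound genes in the CM lists, 88.5 and 90.9 kb, and shorter than that in the DMEM lists, 187.1 and 116.7 kb. SHH, the hedgehog ligand, on chromosome 7 at 155799980 to 155812463, had its nearest peak farther off, 106.2 to 106.7 kb in the 4 lists.

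LIF, on chromosome 22 at 30240453 to 30246759, had no peak inside the gene and none within 1000 bp of it. Within 20 kb on either side, a distance chosen after the data had been seen, there were 10 peaks in CM library 1, 12 in CM library 2, 1 in DMEM library 1 and 4 in DMEM library 2. Among 10389 genes unbound in CM library 1, the number with 10 or more such peaks was 4, namely LIF, PNPLA2, PER1 and KRT13. Among 10970 genes unbound in CM library 2, LIF alone had 12. In the DMEM lists, as many peaks as at LIF were found at 1815 of 16225 and 63 of 13701 unbound genes, LIF included. Unbound genes had a median of 0 in each list. These counts depend on how a list divides a stretch: CM library 2 had several peaks where CM library 1 had 1, from 30255594 to 30258590. Merged intervals were not counted for other genes.

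Merged over the lists, the peaks around LIF formed 11 intervals. Both CM lists and no DMEM list held 6 of them, both CM lists and a DMEM list held 2, and a single CM list held 3. The interval from 30255594 to 30258590 was ranked highest, at percentile 78.3 in CM library 1, 83.1 in CM library 2 and 64.0 in DMEM library 2, with no peak in DMEM library 1. The interval from 30251229 to 30253863 was the only one with a peak in all 4 lists, at percentiles of 62.6, 61.4, 12.0 and 43.2.

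Both of these intervals lie between LIF and OSM, the gene of oncostatin M, another gp130 cytokine, on the side of LIF from which it is read. They are 8835 and 4470 bp from LIF and 4239 and 8966 bp from OSM (30262829 to 30266851), and a peak list does not tell which gene they serve. OSM itself was CM-only, through the interval from 30262936 to 30263449, at percentiles 39.8 and 16.5 of the CM lists. That interval lies inside OSM, near its low-coordinate end. The distances to OSM run to the same end, and the direction in which OSM is read was not taken into account. On the other side of LIF, 4 intervals were held by both CM lists and no DMEM list, the nearest of them 4833 bp from the gene. With a window of 2500 bp, LIF was bound in both CM lists and neither DMEM list, through peaks that began 1738 and 2466 bp from it. That call was lost in lists of equal length, each shortened to its 4657 highest scores. The nearest CM peaks then lay 8835 and 9170 bp from LIF and the nearest DMEM peaks 6014 and 6006 bp. The lowest scores kept were 132 and 115 in CM libraries 1 and 2, but 13 and 61 in DMEM libraries 1 and 2. Between 30251229 and 30253863, CM peaks scored 110 and 108 were dropped, and a DMEM library 1 peak scored 32 was kept. These distances are therefore not read as a difference between the media.

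The CG content of the upstream windows was compared with the peaks over all promoters. Peaks of both CM lists overlapped 1.4% of promoters with 0 to 4 CG pairs in 250 bases, 9.6% of those with 5 to 9, 31.6% of those with 10 to 14, 42.6% of those with 15 to 19, 51.1% of those with 20 to 29 and 53.7% of those with 30 or more. In both DMEM lists the same shares were 0.4%, 2.6%, 10.7%, 14.8%, 18.4% and 17.6%, so the highest class lay slightly below the one before it. CXCL8 and IL6, each with 4 CG pairs, and SHH, with 7, had no peak. CXCL1 had 18, and the 4 PDGFA windows 22, 40, 17 and 23. CXCL5 had 6 CG pairs, 1 fewer than SHH, and was overlapped in both CM lists and DMEM library 2. Promoters share libraries and base composition, and these shares were not tested.

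**Figure D3:**
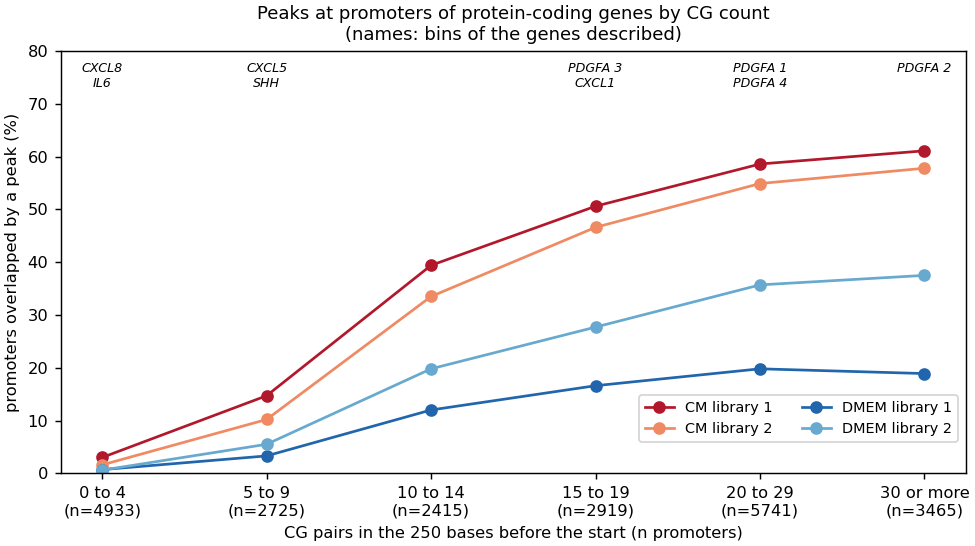
Share of promoters of protein-coding genes overlapped by a peak, in percent, by the number of CG pairs in the 250 bases before the start (lines, 1 per library; the number of promoters stands under each class). Names at the top give the class of each member's window, PDGFA numbered by its 4 starts from low to high coordinate; CXCL5 and SHH share the class of 5 to 9 pairs, in which 14.7% and 10.2% of promoters were overlapped in CM libraries 1 and 2.

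Of 22 other ligands of the same or related families, 5 were bound in both CM lists, beside 43.3% of all protein-coding genes. Both DMEM lists bound 1 of them, beside 18.1% of all genes. The 22 include CSF2, CSF3 and CCL2, none of which was bound in both CM lists. CTF1 (cardiotrophin 1, a gp130 cytokine) was bound in all 4 lists, at percentiles 79.1, 77.3, 61.5 and 30.1. OSM and IL34, the second ligand of the CSF1 receptor, were CM-only. IL34, a gene of 80784 bp, stood at percentiles 36.0 and 8.1 of the CM lists. VEGFB and CLCF1, chosen after their values were seen, were bound in both CM lists and DMEM library 2. No peak was found in any list at 13 of the 22, beside 49.8% of all genes.

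Of 16 receptors for these factors, 4 were bound in both CM lists and 1 in both DMEM lists, beside 43.3% and 18.1% of all genes. The hedgehog receptor gene PTCH1 was bound in all 4, at percentiles 89.0, 76.4, 66.6 and 74.5, while its ligand gene SHH had no peak. IL6ST, which encodes gp130, was CM-only at percentiles 68.9 and 57.5. LIFR and NRP1, a VEGF co-receptor, were CM-only at percentiles of at most 23.1, in genes of 133736 and 157175 bp, where a long gene body gives more room for a peak. The receptor genes CSF1R, CXCR1, CXCR2, PDGFRA, FLT1 and KDR had no peak in any list.

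Of 21 signal transducers and regulators, 16 were bound in both CM lists and 5 in both DMEM lists, beside 43.3% and 18.1% of all genes, with no test of the list. The genes of this list run from 2108 bp (CEBPB) to 303320 bp (GLI3), and long genes have more room for a peak. The 5 bound in all 4 lists were STAT3 (mean percentile over the lists 88.2), the NF-κB subunits RELA (75.8) and NFKB1 (65.8), the kinase JAK1 (59.3) and CEBPB (57.8), a transcription factor of cytokine genes. NFKB2 was CM-only at percentiles 39.8 and 52.7, as were VHL (25.5 and 27.4), TNFAIP3 (21.9 and 31.4) and SUFU (25.5 and 2.3). SUFU is a long gene of 130717 bp. The hedgehog transcription factor genes GLI1, GLI2 and GLI3 had no peak in any list. Of 6 genes of ligand processing and release, ADAM17, a sheddase, was the one bound in both CM lists, with a peak in DMEM library 2 as well, and was named after its values were seen.

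**Figure D4:**
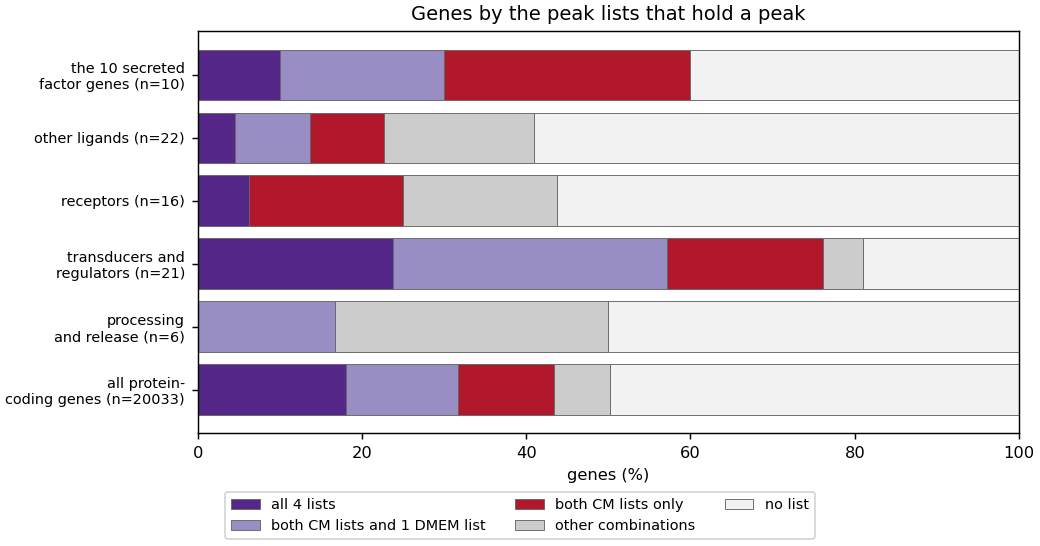
Share of genes, in percent, by the combination of peak lists that hold a peak at the gene, for the 10 secreted factor genes, 4 lists of related genes and all protein-coding genes (bars; number of genes beside each name). Both CM lists bound 16 of 21 transducers and regulators, 5 of 22 other ligands and 4 of 16 receptors, beside 43.3% of all protein-coding genes. They bound 1 of 6 genes of processing and release. Gene lengths differ between the lists, and no list was tested.

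Peak lists do not report expression, so the labelled cell type could not be checked by its markers. Of 5 epithelial markers, KRT8, KRT18 and KRT19 were bound in both CM lists, beside 43.3% of all genes. These 3 keratin genes were CM-only, beside 11.7% of all genes, and EPCAM and CDH1 had no peak in any list. KRT8 and KRT18 overlap and had the same percentiles, 39.8 and 41.7. Of 5 fibroblast markers (COL1A1, COL1A2, PDGFRB, FAP and ACTA2) 0 were bound in both. Of 3 myeloid markers 0 and of 3 endothelial markers 1, CDH5, were bound in both CM lists. The myeloid marker CD68 had a peak at percentile 93.3 of CM library 1 and 16.8 of DMEM library 2, and none in the other two lists.

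The CM-only calls depended on list length and on DMEM library 2. With all lists shortened to the 4657 peaks of highest score, the length of the shortest, VEGFA was bound in all 4 lists, CXCL5 in both CM lists alone, PDGFA in CM library 1 alone, and CSF1, PDGFB and CXCL1 in none. Without DMEM library 2, PDGFA and CXCL5 joined these 3 as CM-only members, which made 5. The shortened lists kept scores down to 132 and 115 in CM libraries 1 and 2, but down to 13 and 61 in DMEM libraries 1 and 2. Shares of all genes under these settings are not given, so these calls are not a result about the members.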

How the data were processed

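MYC ChIP-seq peaks were analysed in 4 immunoprecipitated MIAPaCa2 libraries, 2 after CM and 2 after DMEM; the 2 inputs were not used here. The submitters' processing notes name MACS2 2.1.1.20160309, which calls peaks, beside Bowtie2 2.3.4 for alignment to GRCh38, Trim Galore 0.4.3, Picard 2.9.0 and SAMtools 1.3.1. Neither their settings nor the role of the inputs is given in the sources used. The authors deposited 1 peak list per library, with a whole-number score per peak, and common lists per condition. Starts were raised by 1, since BED files count from 0. Gene positions came from the RefSeq table of GRCh38.p14, for 20033 protein-coding genes on chromosomes 1 to 22, X and Y; no peak lay on Y. Peaks were joined to genes by an overlap of at least 1 bp with the gene and 1000 bp on either side, with Python 3.11.15 and pandas 2.3.3. The joining was checked against a brute-force count on simulated data. Percentiles use average ranks for ties.

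The members and gene lists were chosen with earlier results of these data known. Named genes are the 10 members, some of the genes sharing or neighbouring their peaks, and the 3 genes nearest to VEGFA. From each related list they are the CM-only members and those in all 4 lists. Of these, up to 6 were taken by mean percentile, with 0 where a list has no peak. TRBV7-8, which shares a PDGFA peak of CM library 1, and further neighbouring genes are not described. Other genes of the related lists, and PNPLA2, PER1 and KRT13, were named after their values had been seen. No list was tested, since genes are not replicates. Alternatives were windows of 500 and 2500 bp, gene ends only, peak midpoints, annotated starts, a minimum score of 50, lists of equal length, the authors' common lists, 1 library per condition, and leaving out each library.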

Additional observations from a re-analysis of the deposited data

How the results depend on the processing

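The files give no read counts, so depth sets an unknown limit on which peaks were found. Shares of all genes under the changed settings are not given, so the counts in this paragraph are not a result about the members. In lists of equal length, 2 members were bound in CM and 1 was CM-only, in place of 6 and 3. The lowest scores kept there were 132 and 115 in CM libraries 1 and 2, and 13 and 61 in DMEM libraries 1 and 2. Annotated starts alone, known for 6 members, gave 3 bound in CM, 0 in DMEM, 1 CM-only and 0 in all 4 libraries. The authors' common lists gave 5 CM-only members, since neither the PDGFA nor the CXCL5 peak of DMEM library 2 is in the common DMEM list. Counting a peak in 1 library as enough gave 3 members bound in DMEM and 3 shared. A flank of 20000 bp, chosen after seeing the data, gave 2 bound in DMEM and 2 shared. Leaving out each library in turn gave 1 to 3 members bound in DMEM, 3 to 5 CM-only and 1 to 3 shared; the high counts of bound and shared members came without DMEM library 1 and that of CM-only members without DMEM library 2. With a minimum score of 50, PDGFA and CXCL5 became CM-only, while PDGFB and CXCL1 each had a peak in 1 CM list. The replicate number was also used as a block, although the labels do not state that libraries of the same number were paired. CM then had 5 and 3 more bound members than DMEM in the 2 pairs formed by number, a mean of 4. The exact two-sided permutation p was 0.5, the smallest that 2 pairs allow. Under each of these settings, IL6 and SHH had no peak, and VEGFA was bound in every list used, except that its annotated start was not among the 6.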
